A study of Rattus norvegicus with 30 samples.

Results

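The lysosomal glycosidases described here are 7 genes, Gaa, Gla, Glb1, Gusb, Hexa, Man2b1 and Neu1, picked by symbol from the 17353 genes of the expression table. The rule has no threshold on measured values, but the 7 were chosen with earlier results of these data known. All 7 were found, and each had a mean of at least 1 FPKM (fragments per kilobase of transcript per 1000000 mapped fragments), so all 7 were among the 8940 genes tested. RNA was sequenced from REF cells, a line of rat embryonic fibroblasts listed with no transformation, taken either unstarved (control) or without serum on days 2, 3, 4, 6, 8, 10, 12, 14 and 16. There were 3 libraries in each of these 10 groups, described by the submitters as biological replicates. Their text does not say how the cultures were kept or whether replicates of different days were grown side by side, so p-values measure the spread between these libraries. Serum starvation holds such cells in quiescence, a reversible exit from the cell cycle, and the series asks how quiescence changes as starvation goes on.

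Glycosidases of the lysosome are acid hydrolases that take sugars one by one off glycogen, glycolipids, glycoproteins and glycosaminoglycans, and inherited loss of a single enzyme leaves its substrate stored in the lysosome. Most are made in the endoplasmic reticulum, tagged with mannose 6-phosphate in the Golgi and carried to the lysosome by receptors. Many of their genes carry an E-box with the core CACGTG near the start site, the centre of the element bound by TFEB, TFE3 and MITF, transcription factors known for switching on lysosomal genes.

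The promoter sequences were looked at for that core, since most of the 7 genes moved together and Gusb did not. RefSeq promoters of build GRCr8, running from 250 bases before the start site to 50 after it, matched 6 of the 7 symbols (all but Hexa). CACGTG, which reads the same on both strands, occurred in 2 of the 6, Gaa and Glb1, against 7.08% of 27457 symbols and 10.1% of 6972 tested symbols. It began 67 bases before the start in Gaa and 100 bases before it in Glb1. The form of 7 bases, TCACGTG on either strand, includes the core and was in the same pair of promoters, against 3.58% of all symbols and 5.92% of tested symbols. The palindrome of 8 bases, TCACGTGA, was in 0 of the 6, against 0.896% of all and 1.81% of tested symbols. The 250 bases before the start are shown, 5′ to 3′ along the gene, for the pair with the core and for 2 promoters without it, those of Man2b1, whose level was still increasing at day 16, and Gusb, which differed least from control at days 2 and 16. Their positions are chr10:105028105-105028354 on the plus strand for Gaa, chr8:122963468-122963717 plus for Glb1, chr19:39979247-39979496 minus for Man2b1 and chr12:32337057-32337306 plus for Gusb. Capitals mark the core with a flanking T or A that extends it.
Gaa: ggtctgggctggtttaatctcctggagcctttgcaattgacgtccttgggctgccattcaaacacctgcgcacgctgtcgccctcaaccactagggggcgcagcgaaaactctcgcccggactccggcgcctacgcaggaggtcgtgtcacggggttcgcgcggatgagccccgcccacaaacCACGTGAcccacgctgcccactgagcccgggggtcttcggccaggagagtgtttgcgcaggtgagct
Glb1: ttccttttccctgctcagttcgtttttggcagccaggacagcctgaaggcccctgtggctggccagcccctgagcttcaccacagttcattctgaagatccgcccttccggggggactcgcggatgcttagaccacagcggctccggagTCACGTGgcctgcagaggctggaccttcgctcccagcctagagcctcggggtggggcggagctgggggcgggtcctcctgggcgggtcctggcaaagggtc
Man2b1: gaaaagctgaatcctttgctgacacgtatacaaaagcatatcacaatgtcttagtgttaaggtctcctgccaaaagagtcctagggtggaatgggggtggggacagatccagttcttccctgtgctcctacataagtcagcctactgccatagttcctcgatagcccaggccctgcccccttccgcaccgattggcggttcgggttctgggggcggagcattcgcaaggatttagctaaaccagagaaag
Gusb: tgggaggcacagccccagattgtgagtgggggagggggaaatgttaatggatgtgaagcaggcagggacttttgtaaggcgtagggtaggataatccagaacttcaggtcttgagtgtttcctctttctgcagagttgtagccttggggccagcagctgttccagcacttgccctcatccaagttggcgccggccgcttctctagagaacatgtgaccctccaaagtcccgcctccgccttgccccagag
Of the pair with the core, Gaa had the largest change from control of the 7 genes and Glb1 changed little after day 2. This is a description of letters in a window and not of binding.

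Facts of the whole set bear on these values. FPKM per library summed to between 582501 and 785072, between 8709 and 8887 genes reached 1 FPKM, and the 10 highest genes took 9.14% to 17.9% of the sum. Replicate 1 stood apart within groups: on the first component of the deviations from group means (28.7% of their variance) its libraries scored from 5.79 to 17.8, all others from -13.0 to -0.76. Of the fibroblast markers, Col1a1, Col3a1, Vim, Pdgfrb and Fn1 were high in every library, while Col1a2 was listed at 0 in all 30, Thy1 was listed at 0 in 26, and Pdgfra, Dcn and Lum reached at most 1.52, 2.16 and 5.48 FPKM. Macrophage markers, from cells rich in these enzymes, summed to 7.40 to 7.87 FPKM in control libraries and 0.471 to 3.20 in starved ones, with Aif1, Adgre1 and Tyrobp listed at 0 throughout. Csf1r and Cd14 carried that sum in control, while Lyz2 was listed at 0 in control and at 1.14 ± 0.52 FPKM at day 16, and its part in the result was not tested. Of 6 epithelial markers, 5 stayed under 1 FPKM in every library, but Krt8 rose from 11.7 ± 1.08 in control to 68.0 ± 7.01 at day 16 along with most of the glycosidases, taking the list's sum from 10.7 to 12.9 in control libraries to 62.2 to 75.8 at day 16, and its part in the result was not tested. Endothelial markers summed to at most 0.763 FPKM and adipocyte markers to at most 0.296.

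Starvation was accompanied by higher levels of 6 of the 7 glycosidase genes. Of these, Gaa, Hexa, Man2b1 and Neu1 were higher again at day 8 than at day 2 and at day 16 than at day 8. Against unstarved cells, Gaa, Gla, Glb1, Hexa, Man2b1 and Neu1 were higher at day 2 and Gusb did not pass the test (limma on log2(FPKM + 1), Benjamini-Hochberg adjusted p under 0.05). The background was high, with 29.98% of the tested genes higher and 30.7% lower in that comparison, and the count of 6 higher and 0 lower of 7 is to be read against it. Because the 7 were chosen with earlier results of these data known, this count and those that follow only describe them. Over days 2 to 16 the fitted slope was upward for 7 of 7, where 26.6% of genes sloped up and 28.9% down. The count was 5 of 7 with libraries rescaled to one FPKM sum, which lost Glb1 and Gusb and left 1573 genes sloping up and 3256 down, and 6 of 7 without replicate 1, which lost Gusb. The median fitted change of the 7 was 0.67 on the log2 scale at day 2 and 1.62 over the 14 days from day 2, beside 0.00 and -0.02 for all genes tested. Day 16 against the same control libraries gave 6 higher and 0 lower, with 32.4% of genes higher and 35.0% lower, and a median of 2.24 beside -0.02.

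The course was split at day 8. From day 2 to day 8, 5 genes rose (Gaa, Gla, Hexa, Man2b1 and Neu1) and 1 fell (Gusb), where 17.4% of genes were higher and 18.4% lower. From day 8 to day 16, 5 were higher (Gaa, Gusb, Hexa, Man2b1 and Neu1) and 0 lower, where 15.8% and 14.4% of genes were. Gusb passed in neither span with libraries rescaled to one FPKM sum or with a fit of only the 2 groups compared. The median change of the 7 was 0.89 in the earlier span and 0.45 in the later one, beside 0.01 and 0.00 for all genes. The FPKM of the 7 genes summed to 198 ± 7.42 in control cells, 348 ± 10.6 at day 2, 612 ± 22.2 at day 8 and 878 ± 37.8 at day 16 (SD, n = 3). In bulk RNA a shift in the make-up of the cells and a shift in RNA per cell cannot be told apart.

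**Figure D1:**
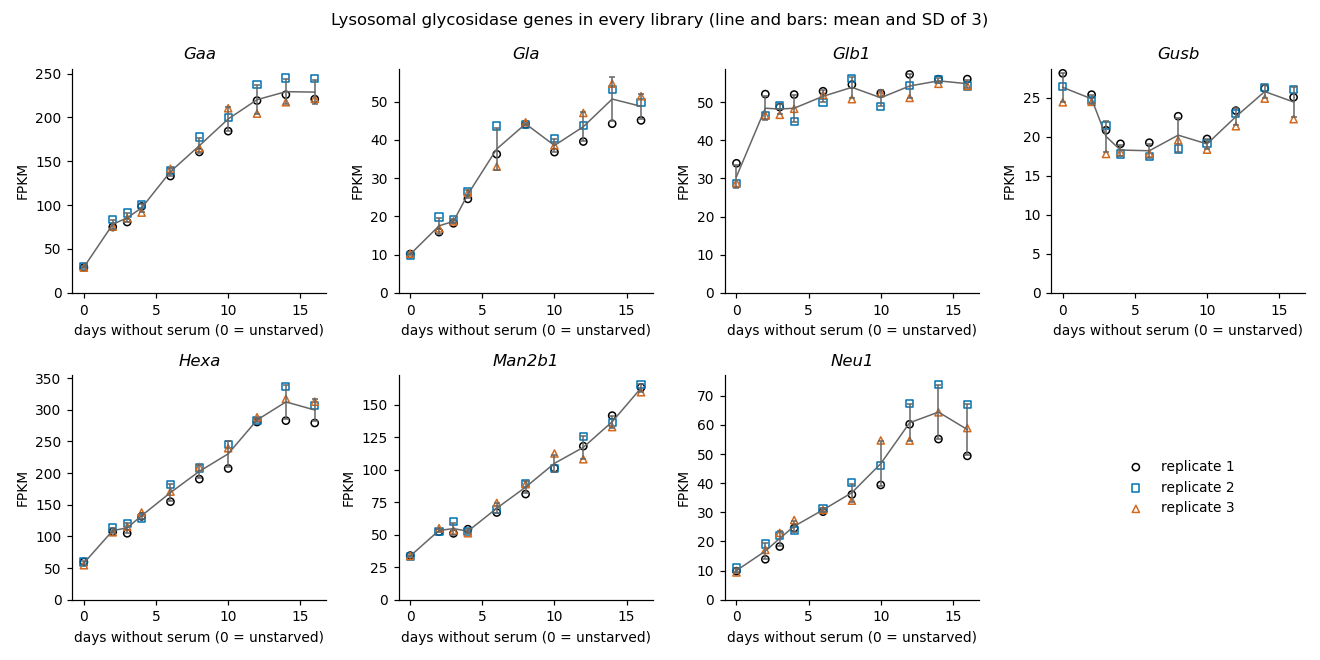
FPKM of each glycosidase gene in every library against days without serum (0 is unstarved), with symbols for the replicate number and a line and bars for the mean and SD of 3. Gaa, Hexa, Man2b1 and Neu1 climb over most of the course, and Gla climbs mainly up to day 8. Glb1 steps up by day 2 and stays near 50 FPKM, and Gusb dips between days 3 and 10.

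Gaa encodes acid alpha-glucosidase, which frees glucose from glycogen in the lysosome and is lost in Pompe disease. Its level was 28.8, 30.2 and 28.7 FPKM in the control libraries, 75.0, 83.8 and 75.6 at day 2, 161, 178 and 165 at day 8, and 221, 245 and 221 at day 16. The 4 groups did not overlap, and the day 16 mean was 7.82 times the control mean, the largest such ratio of the 7 genes. Gaa also had the largest early change of the 7, a log2 difference of 1.39 ± 0.07 (SE) at day 2 (limma adjusted p = 8.12e-15). In between, its means were 85.6 ± 5.15 at day 3, 96.8 ± 4.68 at day 4, 138 ± 4.44 at day 6, 198 ± 13.1 at day 10, 220 ± 16.4 at day 12 and 229 ± 14.1 at day 14. The means of Gaa thus climbed to day 12 and changed little after it. Libraries of day 10 overlapped those of day 12, and days 12, 14 and 16 overlapped as well. From day 2 the fitted change was 1.67 ± 0.11 over 14 days (adjusted p = 5.26e-13, limma). The group contrasts were 1.09 from day 2 to day 8 and 0.45 from day 8 to day 16 (adjusted p = 3.07e-12 and 3.15e-05, limma).

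Hexa encodes the alpha subunit of beta-hexosaminidase A, which trims GM2 ganglioside with the help of the GM2 activator encoded by Gm2a and is lost in Tay-Sachs disease. Per length it was the most abundant of the 7 at every group mean. The control libraries held 59.6, 59.6 and 54.5 FPKM, those of day 2 107, 114 and 107, those of day 8 190.4, 208 and 210, and those of day 16 279, 307 and 313. Every library of a later one of these groups lay above every library of the earlier ones. The log2 difference was 0.90 ± 0.08 at day 2, and the slope gave 1.62 ± 0.09 over 14 days (limma adjusted p = 1.95e-10 and 4.57e-15). Its highest mean was that of day 14, 312 ± 27.5, whose libraries overlapped those of days 12 (284 ± 3.84) and 16 (300 ± 18.0).

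Gla encodes alpha-galactosidase A, which removes the end galactose of globotriaosylceramide and is lost in Fabry disease. Its libraries read 10.2, 9.84 and 10.2 FPKM in control, 15.9, 19.8 and 16.9 at day 2, 44.1, 44.0 and 44.6 at day 8, and 45.1, 49.8 and 51.5 at day 16. The increase was placed early in starvation: by day 8, 93.7% of the log2 change from control to day 16 was present. The log2 difference was 0.74 ± 0.09 at day 2 and 1.29 ± 0.09 from day 2 to day 8 (limma adjusted p = 2.02e-07 and 2.65e-11). From day 8 to day 16 it was 0.14 ± 0.09, which did not pass (adjusted p = 0.281, limma). All 3 libraries of day 10 (36.8, 40.3 and 38.6) were below all 3 of day 8, and the highest mean was 50.7 ± 5.65 at day 14.

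Glb1 encodes beta-galactosidase, which cuts GM1 ganglioside and keratan sulfate and is the enzyme behind the senescence-associated beta-galactosidase stain. Its libraries read 34.0, 28.6 and 28.8 FPKM in control and 52.1, 46.6 and 46.5 at day 2, with no overlap. After that the level changed little: 54.6, 56.3 and 50.8 at day 8 and 56.0, 54.2 and 54.2 at day 16. In the order of its 10 group means the control stood apart from its neighbour and the other 8 neighbouring pairs overlapped. The log2 difference at day 2 was 0.65 ± 0.07 (limma adjusted p = 1.07e-08), 78.5% of the change reached at day 16. The slope from day 2, 0.21 ± 0.05 over 14 days, passed (adjusted p = 0.000436, limma), though not with libraries rescaled to one FPKM sum, where it was 0.08 (adjusted p = 0.462, limma). Neither day 8 against day 2 (0.15, adjusted p = 0.0924) nor day 16 against day 8 (0.03, adjusted p = 0.810) passed in limma. The former did pass without the first day 2 library (0.21, adjusted p = 0.0397).

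Neu1 encodes the lysosomal sialidase, which removes sialic acid from glycoproteins and gangliosides. Its libraries read 9.81, 10.9 and 9.37 FPKM in control, 13.9, 19.1 and 17.1 at day 2, 36.1, 40.1 and 34.0 at day 8, and 49.4, 66.9 and 58.9 at day 16. The groups did not overlap, but Neu1 was the noisiest of the 7, with a median coefficient of variation of 11.1% within groups, where the other 6 had 4.28% to 5.98%. Its slope was the largest estimate of the 7, 1.86 ± 0.13 over 14 days (limma adjusted p = 1.34e-12), after 0.67 ± 0.13 at day 2 (adjusted p = 8.14e-05). The highest mean was 64.4 ± 9.30 at day 14, and days 12, 14 and 16 overlapped.

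In the lysosome, beta-galactosidase and the sialidase are held in one complex by protective protein/cathepsin A, encoded by Ctsa, which the sialidase needs for activity. The 3 genes did not keep step. Ctsa went from 113 ± 13.6 FPKM in control to 359 ± 19.5 at day 2, 603 ± 31.3 at day 8 and 745 ± 13.2 at day 16, the largest log2 difference of the 3 at day 2 (1.66 ± 0.08, limma adjusted p = 2.73e-15). The FPKM ratio of Glb1 to Neu1 was 3.06 ± 0.42 in control and 2.97 ± 0.69 at day 2, then 1.47 ± 0.06 at day 8, 0.90 ± 0.08 at day 12 and 0.96 ± 0.17 at day 16. Their log2 ratio thus changed by -1.65 ± 0.14 over 14 days (two-sided permutation test on the slope over 27 libraries, p = 1e-05). This p is the smallest that 100000 resamples can give, and adjusted over 4 ratios it also rounds to 1e-05.

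Against Ctsa, the 2 hydrolases behaved differently. Glb1 to Ctsa was 0.270 ± 0.010 in control, 0.135 ± 0.002 at day 2, 0.0893 ± 0.0006 at day 8 and 0.0736 ± 0.0007 on day 16, with a log2 change of -0.95 ± 0.06 over the 14 days from day 2 (permutation p = 1e-05, the smallest possible). Neu1 to Ctsa was 0.0898 ± 0.0156 in control, 0.0468 ± 0.0095 at day 2, 0.0608 ± 0.0029 at day 8, 0.0874 ± 0.0095 at day 12 and 0.0785 ± 0.0125 at day 16. Its log2 ratio changed by 0.69 ± 0.12 over those 14 days (permutation p = 1e-05, the smallest possible). So the mRNA ratio of sialidase to Ctsa was low at day 2 and higher later, while that of beta-galactosidase to Ctsa was lower at each later of the 4 times given. The changes from control to day 2 in these ratios were not tested.

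**Figure D2:**
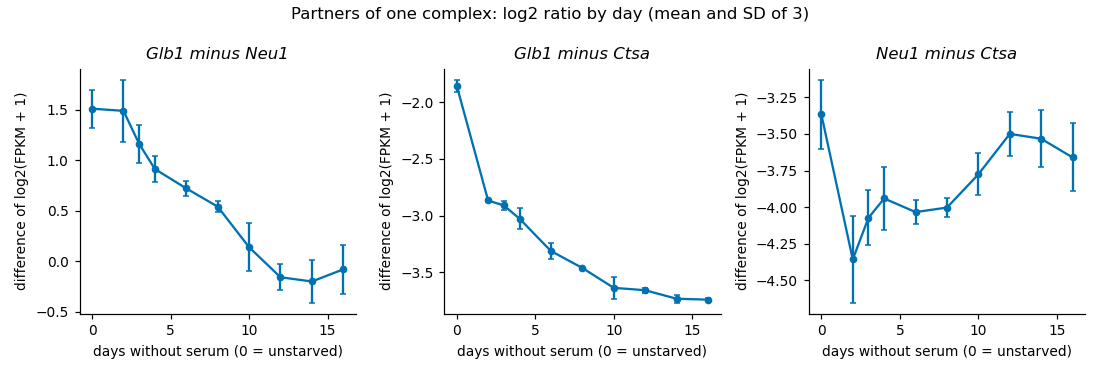
Difference of log2(FPKM + 1) between the genes of a pair against days without serum, mean and SD of 3 libraries, for Glb1 and Neu1, Glb1 and Ctsa, and Neu1 and Ctsa, each panel with its own axis range. Glb1 less Neu1 goes from 1.51 in control to -0.08 at day 16, and Neu1 less Ctsa is at its lowest, -4.36, at day 2.

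Man2b1 encodes lysosomal alpha-mannosidase, which trims mannose from N-linked glycans and is lost in alpha-mannosidosis. Its libraries read 34.0, 33.3 and 33.7 FPKM in control, 52.4, 52.5 and 55.0 at day 2, 81.3, 89.8 and 88.9 at day 8, and 163, 166 and 160 at day 16. The gene stepped up by day 2, paused and then climbed to the end. Days 2, 3 and 4 overlapped, with means of 53.3 ± 1.48, 54.8 ± 4.63 and 52.7 ± 1.56. Means of 70.4 ± 3.74 at day 6, 105 ± 6.58 at day 10, 117 ± 8.74 at day 12 and 137 ± 4.45 at day 14 followed, and all libraries of day 16 were above all of day 14. It was the only one of the 7 whose highest mean was that of day 16. The log2 difference was 0.65 ± 0.07 at day 2, 0.69 ± 0.07 from day 2 to day 8 and 0.90 ± 0.07 from day 8 to day 16 (limma adjusted p = 5.05e-09, 5.24e-09 and 9.81e-11). Of its log2 change from control to day 16, 59.7% was present by day 8, the lowest such share of the 6 genes that were higher at day 16, where the others had 73.3% to 96.9%. These shares were not compared by a test.

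Gusb encodes beta-glucuronidase, which removes glucuronic acid from glycosaminoglycans and is often used as a reference gene in quantitative PCR. It went another way. Its libraries read 28.1, 26.4 and 24.4 FPKM in control, 25.4, 24.7 and 24.5 at day 2, 22.6, 18.4 and 19.6 at day 8, and 25.0, 26.0 and 22.2 at day 16. Day 2 overlapped the control, with a log2 difference of -0.08 ± 0.08 (limma adjusted p = 0.418), and so did day 16, at -0.10 ± 0.08 (adjusted p = 0.267). Both differences turned slightly positive under upper quartile rescaling and under quantile normalization (0.01 to 0.03). Between these ends lay a trough, with means of 20.0 ± 1.96 at day 3, 18.3 ± 0.70 at day 4, 18.2 ± 0.91 at day 6 and 19.1 ± 0.69 at day 10, and all day 3 libraries were below all day 2 libraries. It then returned to 22.6 ± 1.07 at day 12 and 25.8 ± 0.78 at day 14. The tests of the spans, which share the day 8 libraries, followed that shape. They gave -0.29 ± 0.08 from day 2 to day 8 (limma adjusted p = 0.00603) and 0.27 ± 0.08 from day 8 to day 16 (adjusted p = 0.0145). The fall did not pass with libraries rescaled to one FPKM sum (-0.20, adjusted p = 0.254, limma) or with a fit of only those 2 groups (adjusted p = 0.0542). The upward slope, 0.25 ± 0.10 over 14 days (adjusted p = 0.0387, limma), summarised a dip and a return and was lost when any one of 9 libraries was left out, namely day 3 replicate 3, each of day 4, each of day 14, or the first or second of day 16 (adjusted p up to 0.0872, limma). Likewise the change from day 8 to day 16 did not pass when replicate 2 or else replicate 3 of day 8, or either of replicates 1 and 2 of day 16, was left out (adjusted p of 0.0514 to 0.0915 in limma). Nor did that change pass with libraries rescaled to one FPKM sum (0.10, adjusted p = 0.572, limma) or with a fit of only days 8 and 16 (adjusted p = 0.0854).

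**Figure D3:**
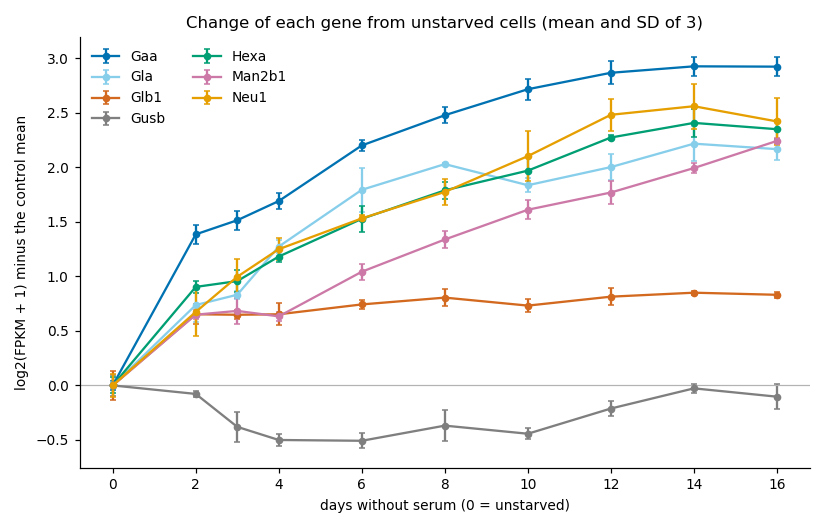
Level of each glycosidase gene as log2(FPKM + 1) less its control mean, against days without serum, mean and SD of 3 libraries. Gaa leads throughout, 4 genes end between 2.17 and 2.42, Glb1 is at 0.65 at day 2 and 0.83 at day 16, and Gusb is below its control mean on every starved day, furthest on days 4 and 6.

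**Figure D4:**
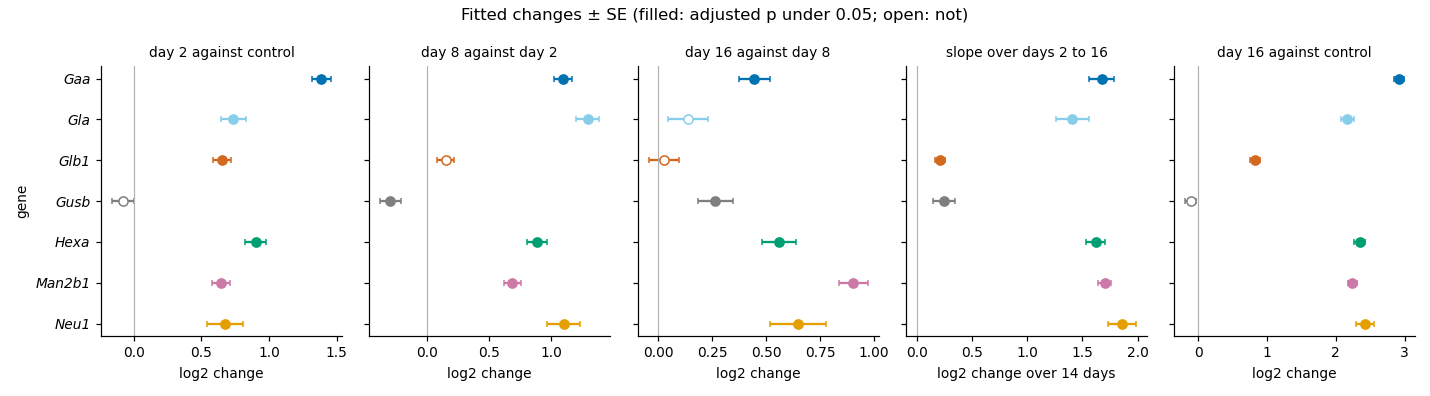
Fitted log2 change ± SE of the 7 genes in each of the 5 comparisons, from limma, with filled points for adjusted p under 0.05 and open points otherwise, each panel with its own axis range. Points are open for Gusb at day 2 and day 16 against control, for Glb1 in both spans split at day 8, and for Gla from day 8 to day 16.

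The genes also differed in which libraries ran low. Replicate 1 was the lowest of its group in 6 of 10 groups for Gaa and Neu1 and in 7 of 10 for Gla and Hexa, and the highest in 7 of 10 for Glb1 and Gusb. Without replicate 1 in every group, the counts of genes higher and lower were 6 and 0 at day 2, 6 and 0 for the slope, 6 and 1 from day 2 to day 8, and 5 and 0 from day 8 to day 16. The slope of Gusb no longer passed (0.26, limma adjusted p = 0.0941), and the change of Glb1 from day 2 to day 8 did (0.20, adjusted p = 0.0404).

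Across the 10 group means of log2(FPKM + 1), Gaa, Gla, Hexa, Man2b1 and Neu1 were correlated with each other at r between 0.919 and 0.994 (10 pairs). Glb1 was correlated with those 5 at 0.789 to 0.920, and Gusb with the other 6 at -0.313 to 0.0857. The points share their libraries and an ordered course of days, so these values only describe the shape. With the mean of the 7 genes over 30 libraries, the correlation was highest for Hexa (0.997) and lowest for Gusb (-0.06). Each of the 7 is itself part of that mean, which genes outside the 7 are not.

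Of 7169 named genes with a mean of at least 5 FPKM outside the 7, the 5 closest to that mean over the 30 libraries were Cst3, P2rx4, Dpp7, P4ha2 and Entpd4, with r from 0.979 to 0.993. Cst3, which encodes cystatin C, a secreted inhibitor of cysteine cathepsins, went from 172 ± 11.2 FPKM in control to 364 ± 11.9 at day 2, 1030.0 ± 51.8 at day 8 and 1720.2 ± 178 at day 16. Dpp7, a lysosomal dipeptidyl peptidase, went from 19.3 ± 1.14 to 46.9 ± 2.40, 109 ± 3.95 and 139 ± 7.88 at the same times. P2rx4 encodes an ATP-gated channel found on lysosomes, P4ha2 a collagen prolyl hydroxylase subunit of the endoplasmic reticulum and Entpd4 a nucleotidase of the Golgi and lysosome.

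In a list of other lysosomal glycosidases, which takes in related hydrolases too, most genes were higher as well. Of 10 tested, 9 were higher at day 2 and 0 lower, the 10th being the hyaluronidase gene Hyal2, and 8 sloped up and 2 down. Of all 8940 tested genes, 29.98% were higher and 30.7% lower at day 2, and 26.6% sloped up and 28.9% down. This list and those below were chosen with earlier results of these data known, so their counts only describe. The medians were 0.83 at day 2 and 0.71 for the slope. Man2b2, encoding another lysosomal alpha-mannosidase, went from 31.3 ± 2.56 FPKM in control to 77.6 ± 3.4, 96.4 ± 7.42 and 124 ± 13.4 at days 2, 8 and 16. Idua, encoding alpha-iduronidase, went from 9.55 ± 1.72 to 30.1 ± 0.79 at day 2, a log2 difference of 1.57 (limma adjusted p = 1.93e-10). The 2 that fell were Hyal2, from 41.0 ± 1.63 at day 2 to 25.2 ± 0.29 at day 8 (-0.68, adjusted p = 3.19e-06, limma), and Ctbs, encoding di-N-acetylchitobiase, from 4.37 ± 0.09 to 1.45 ± 0.13 (-1.13, adjusted p = 3.05e-05). Galc was listed at 0 in all 30 libraries and Manba reached at most 0.134 FPKM, so neither was tested.

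Among partners, activators and sulfatases, 6 of 8 tested genes were higher at day 2 and 1 lower, and 7 sloped up and 0 down. The shares of all tested genes were 29.98% higher and 30.7% lower at day 2, and 26.6% up and 28.9% down for the slope. Psap, the precursor of the saposins that lift glycolipids to their hydrolases, went from 199 ± 7.68 FPKM in control to 363 ± 21.8, 493 ± 7.56 and 619 ± 2.78 at days 2, 8 and 16. Arsb, encoding arylsulfatase B, was the 1 that fell at day 2, from 51.4 ± 8.12 to 35.3 ± 5.93 (-0.53, limma adjusted p = 0.000812), and was back at 53.0 ± 1.39 by day 16. Gm2a, the helper of beta-hexosaminidase A, stood at 102 ± 5.65 FPKM on day 2 and 91.1 ± 6.71 on day 8 but 191 ± 8.03 on day 16, so that its later increase came after day 8 (1.06, adjusted p = 2e-09, limma).

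In a list for mannose 6-phosphate tagging and for sorting to the lysosome by any route, 6 of 8 genes were higher at day 2 and 0 lower. Over days 2 to 16, 5 sloped up and 2 down. Sort1 and Scarb2, listed for sorting, were in both upward counts. Among all tested genes, 29.98% were higher and 30.7% lower at day 2, and 26.6% sloped up and 28.9% down. The median was 0.47 at day 2 and 0.30 for the slope. Igf2r, the large mannose 6-phosphate receptor, was 60.3 ± 13.6 FPKM in control, 89.1 ± 19.9 at day 2, 83.5 ± 5.44 at day 8 and 57.2 ± 3.12 at day 16, and its slope was -0.60 ± 0.11 (limma adjusted p = 4.68e-05). Rescaled to one FPKM sum, 2 of the 8 sloped up and 2 down. The same rescaling left 1573 of all tested genes sloping up and 3256 down, where the main analysis had 2377 and 2587. Sort1, encoding sortilin, another sorting receptor, went from 8.95 ± 0.36 to 14.9 ± 2.63, 18.9 ± 0.63 and 25.3 ± 1.72. M6pr, the small receptor, was at most 0.172 FPKM and was not tested.

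Glycosidases outside the lysosome, which trim glycans in the endoplasmic reticulum, Golgi and cytosol, gave a mixed count. At day 2, 10 of 17 were higher and 2 lower, with a median of 0.30, where 29.98% of all tested genes were higher and 30.7% lower. Over days 2 to 16, 3 sloped up and 5 down, with a median of -0.22, where 26.6% of all tested genes sloped up and 28.9% down. Man1a1, a Golgi mannosidase, rose from 1.12 ± 0.17 to 9.37 ± 2.18 FPKM at day 2 and was 1.66 ± 0.48 at day 8 and 2.25 ± 0.36 at day 16. Man2c1, the cytosolic alpha-mannosidase, was 25.7 ± 0.18 at day 2 and 35.2 ± 2.38 at day 16, with a slope of 0.63 ± 0.08 (limma adjusted p = 1.8e-07). The counts inside and outside the lysosome were not compared by a test. Rescaled to one FPKM sum, 10 of the 17 sloped down and 3 up. Of the other lysosomal glycosidases, 8 then sloped up and 2 down. The same rescaling left 1573 of all tested genes sloping up and 3256 down, where the main analysis had 2377 and 2587. Both rescaled counts are to be read against that shift.

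**Figure D5:**
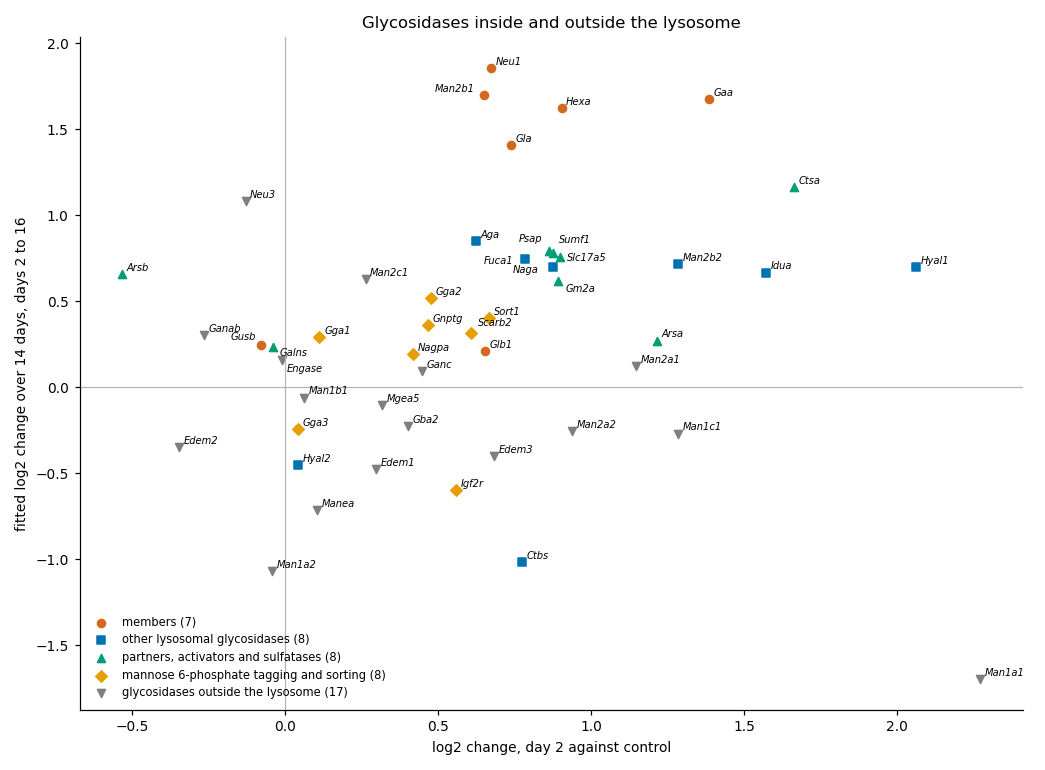
Log2 change at day 2 against control (x axis) and fitted log2 change over 14 days from day 2 (y axis) for tested genes of each list, 1 point a gene, with the number drawn in the legend (8 of the 10 other lysosomal glycosidases). Both axes use the day 2 libraries. Gaa, Gla, Hexa, Man2b1 and Neu1 lie above 1.2 on the y axis, Glb1 and Gusb near 0.2, and Man1a1 is far right and low.

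Of the transcription factors that bind the extended core, Tfeb was 6.44 ± 0.34 FPKM in control, 8.20 ± 0.88 at day 2, 6.02 ± 0.59 at day 8 and 7.23 ± 1.23 at day 16. Its difference at day 2 (0.30 ± 0.17, limma adjusted p = 0.124) and its slope (-0.06 ± 0.14, adjusted p = 0.721) did not pass. Tfe3 was higher at day 2, 15.0 ± 0.91 against 12.2 ± 0.77 (0.28 ± 0.08, adjusted p = 0.00338, limma), and sloped up by 0.31 ± 0.06 (adjusted p = 0.00011), though not with libraries rescaled to one FPKM sum (0.19, adjusted p = 0.0673). Mitf, at 1.24 ± 0.41 in control and 2.89 ± 0.51 at day 16, had a slope of 0.53 ± 0.12 (adjusted p = 0.000667, limma). Tfec was listed at 0 in all 30 libraries. These factors are controlled largely by phosphorylation and entry into the nucleus, which mRNA levels do not show.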

How the data were processed

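Total RNA of 30 libraries (10 groups of 3) was sequenced. The authors deposited 1 table of FPKM per gene and library, and the submitters' processing notes name rat build rn6 and, as tools, Cuffnorm 2.2.1, Cufflinks and TopHat2 2.1.1. Other settings, strandedness and the Cuffnorm scaling are not given in the sources used here. Read numbers could not be recovered from the FPKM values, so the depth per library is unknown and no counting interval is given.

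Genes with a mean of at least 1 FPKM (8940 of 17353) were tested with limma 3.58.1 in R 4.3.3 on log2(FPKM + 1), which understates changes of low genes, with a mean-variance trend, two-sided, and Benjamini-Hochberg adjustment over all 8940 at 0.05. The comparisons were day 2 against control, day 8 against day 2, day 16 against day 8 and day 16 against control in 1 fit of 10 groups, and a line on day over the 27 starved libraries, given as the change over 14 days. Day 2 and day 16 against control share the control libraries. In the same way the spans before and after day 8 share the day 8 libraries, and comparisons with day 2 share those of day 2. The 4 log2 ratios were tested by permuting days, and 1 of them and some list genes are not reported here. Genes named are the 7 glycosidases, up to 4 of each list with the smallest p in a comparison, Ctsa, Tfeb and the 5 genes most correlated with the mean of the 7. Genes that were the exceptions to a count were named after their values were seen. The 7 genes and all lists were chosen with earlier results of these data known. Alternatives changed the pseudocount, the filter, the scaling (equal upper quartiles, an equal sum of 1000000, quantiles), the trend, the replicate block, single libraries and the time scale. Promoters come from RefSeq GRCr8, not the build of the files, and carry no expression coordinates. Scripts were tested on simulated data.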

Additional observations from a re-analysis of the deposited data

How the results depend on the processing

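The results for Gaa, Hexa, Man2b1 and Neu1 kept their direction and their side of the threshold in each of 103 alternatives (limma throughout), those for Gla in 102, Glb1 in 97 and Gusb in 77. A setting is counted once for each comparison it was applied to, with 39 alternatives for the slope and 16 for each other comparison. Rescaling every library to a sum of 1000000 moved the median of all genes by -0.12 for the slope and -0.16 from day 8 to day 16. It left 1573 genes higher and 3256 lower for the slope (2377 and 2587 in the main analysis), 2081 and 1169 from day 2 to day 8 (1559 and 1642), and 731 and 2458 from day 8 to day 16 (1412 and 1291). There it turned the change from day 8 to day 16 to -0.031 for Gla (adjusted p = 0.812) and -0.14 for Glb1 (0.359), ended the slopes of Glb1 (0.08, 0.462) and Gusb (0.12, 0.381), and ended the calls of Gusb in both spans (-0.20, 0.254, and 0.10, 0.572). With that rescaling, and with only the 2 groups compared, the glycosidase genes lower at day 8 than at day 2 numbered 0. Time point means left 1664 genes sloping up and 1723 down. Gusb against control turned to 0.020 and 0.0087 (days 2 and 16) with equal upper quartiles, which moved the median of all genes by 0.10 at day 16, and to 0.026 and 0.027 with quantiles. The slope of Gusb was also lost with log2 of day (0.14, 0.310), without day 16 (0.20, 0.195) and with time point means (0.25, 0.243). Leaving out single libraries took Glb1 from day 8 to day 16 between -0.015 (without day 8 replicate 3) and 0.057. The motif of 8 bases was in 0 promoters. The causes were not tested.

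The main fits did not pair libraries by replicate number, although same-numbered libraries deviated together in part, most clearly those of number 1. Their deviations correlated at a mean of 0.36, 0.09 and 0.17 for numbers 1, 2 and 3. The correlation was over 0.1 in 44, 22 and 31 of 45 pairs of groups, and 23 of 30 libraries correlated best with their own number. With the replicate block, calls numbered 2938 higher and 2962 lower at day 2, and the change of Glb1 from day 2 to day 8 (0.15) passed (adjusted p = 0.0349). The block changed no other call of the 7 genes. The unknown depth limits what can be said of genes near 0.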
